A study of Mus musculus with 9 samples.

Results

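Reads that match the mouse genome except for 1 internal base read as G were collected from 9 small RNA-seq libraries. Aligned reads of 18 to 25 nt were used whose only mismatch was a G with at least 3 matching bases after it. They were grouped by the genomic position of the read's 5′ end and by the position of the G in the read. A 5′ end was kept when such reads summed to at least 1000 over the 9 libraries. This left 91 of the 1113192 5′ ends in the series, of which 35218 had at least 1 such read. The 91 ends held 849 sites and 509954 of the 762836 G reads in the series (66.8%). Because the G reads themselves chose the ends, their number and their excess over other mismatches are given as a description, without a test.

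MIN6 is a mouse insulinoma line that resembles the pancreatic beta cell and was grown in high glucose medium. RNA from it was made into 3 libraries with the Illumina TruSeq kit (TS-MIN6) and 3 with the older Illumina v1.5 kit (v1.5-MIN6), all sequenced on the GAIIx at the same facility and date. A single MIN6 library was made with the NEXTflex V2 kit (NF-MIN6), which has random bases at the adapter ends that are ligated to the RNA, and was sequenced on the HiSeq from another RNA. Liver RNA from 1 C57BL/6J female mouse, 9 weeks old at purchase, injected with saline and fasted overnight, gave 1 TruSeq library (TS-liver) and 1 NEXTflex library (NF-liver), both on the HiSeq. No group carries a genetic change or a drug. The study calls the 3 libraries of a kit biological replicates, but the labels do not say that they came from separate cultures, so p-values measure the spread between these libraries, which may be technical. In bulk RNA, fewer cells of a type and less RNA per cell cannot be told apart.

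Adenosine deaminases acting on RNA (ADARs) convert adenosine in double-stranded RNA to inosine. Reverse transcriptase pairs inosine with C, so that an edited A is read as G. The stems of miRNA precursors are known substrates, several of them in the Dlk1-Dio3 cluster of imprinted miRNAs, and an edited base in the seed changes which transcripts a miRNA can pair with. A G in a read can also come from a sequencing or copying error, from a read of a related gene that differs at that base, or from a genomic difference. For this reason sites are set apart by the base that the hairpin holds.

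The miRNAs in which G reads turned on a hairpin A or on a related hairpin are shown with bases 2 to 8, the seed, in capitals (RefSeq, GRCm38.p6).
miR-411-5p: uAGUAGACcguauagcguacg
miR-379-5p: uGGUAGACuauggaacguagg
miR-381-3p: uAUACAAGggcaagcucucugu
miR-300-3p: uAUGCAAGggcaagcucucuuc
miR-378c: aCUGGACUuggagucagaagc
let-7a-5p: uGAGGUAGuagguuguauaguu
let-7b-5p: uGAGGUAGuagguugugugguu
let-7c-5p: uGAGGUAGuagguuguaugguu
let-7e-5p: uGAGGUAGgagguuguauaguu
miR-98-5p: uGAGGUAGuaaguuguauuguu
The 4 let-7 sequences and miR-98-5p share their seed and differ at a few bases. miR-381-3p and miR-300-3p differ inside the seed and at the 3′ end.

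The hairpins of 3 miRNAs of the Dlk1-Dio3 cluster are shown with the A that was read as G in capitals.
Mir411: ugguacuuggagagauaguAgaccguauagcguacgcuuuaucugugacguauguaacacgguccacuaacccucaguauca
Mir379: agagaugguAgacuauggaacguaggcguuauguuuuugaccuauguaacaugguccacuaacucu
Mir376c: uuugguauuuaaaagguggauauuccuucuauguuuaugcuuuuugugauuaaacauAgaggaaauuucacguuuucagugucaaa
In all 3 the base before this A is U and the base after it is G. Sites are written below as hairpin base, position counted from 1 at the 5′ end of the read, and base read, with U of the RNA written as T in these names.

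Of the 91 ends, 52 lay on miRNA hairpins (51 hairpins, 334851 G reads), 1 on the small nucleolar RNA Snord60 (1742 G reads), and 38 matched no annotated small RNA sequence used here (173361 G reads). Sites with hairpin base A at which no related hairpin differs at that base alone numbered 266 of 849. They held 191299 G reads, 37.5% of those at kept ends. At 159 of these A sites G was above the other mismatches (155932 reads), and at 107 it was not (35367 reads). Sites with hairpin base U numbered 251 (41198 reads) and sites with base C 136 (16666 reads). At 35 sites a related hairpin differs at that base alone, with G or another letter there, and these held 85688 reads (16.8%).

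Few A sites had a sizeable share of G. Of the 266 A sites, 133 reached 0.1% of the reads at their 5′ end in at least 1 library, 10 reached 0.5%, 5 reached 1% and 2 reached 5%. The 5 that reached 1% were miR-411-5p seen from 2 5′ ends, miR-378a-3p, miR-378c and miR-186-5p, of which miR-378c held almost only divided reads that miR-378a-3p holds too. A number of G reads alone did not mark such sites. The miR-122-5p end, on a miRNA of hepatocytes, held 46522 G reads among 7932050 reads, of which 7645080 came from NF-liver. Its leading sites A4G and A10G had 15633 and 14084 reads, yet no library had a share there above 0.203%. The ends just inside the minimum were let-7e-5p with 1030 and miR-320-3p with 1099 G reads. Those just outside were miR-30c-5p with 995 and an unmatched end on chromosome 11 with 957.

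The libraries held 5278900 to 23409400 alignments of 18 to 25 nt. Markers fitted the labels: 4 miRNAs of beta cells (miR-375-3p, miR-7a-5p, miR-200c-3p and miR-182-5p) summed to 132088 to 377729 RPM (reads scaled to the reads of 18 to 25 nt in the library) in MIN6 and 865 to 1297 in liver, and miR-122-5p with miR-192-5p to 461 to 2161 in MIN6 and 215286 and 616390 in liver. The endothelial miR-126a-3p was at 21.8 to 292 RPM in MIN6 and at 1122 and 3605 in liver, and the 4 blood cell miRNAs on the list (miR-451a, miR-144-3p, miR-223-3p, miR-142a-3p) were matched to no 5′ end with 1000 reads, so no level is given for them. The library v1.5-MIN6-1 stood apart. At its hairpin C and U positions, where no editing of A can occur, the median share of G was 0.336% at read position 4, 0.169% at position 10 and 0.0981% at position 12, against 0.00413%, 0.00432% and 0.00416% in v1.5-MIN6-2. Results called on miRNA ends are therefore also given without it. TS-MIN6-1 and TS-MIN6-2 stood apart in the other letters. At hairpin A positions their 90th percentile of the share of C was 1.43% and 2.53%, against 0.0170% in TS-MIN6-3. Their median share of G at C or U was 0.0848% and 0.0651% at position 6, against 0.0232% in TS-MIN6-3. These reads enter the counts of whether G was above the other mismatches.

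miR-411-5p, in the Dlk1-Dio3 cluster on chromosome 12, held the highest shares of G among the A sites. The base is position 20 of the 82-base Mir411 hairpin, at chr12:109710194 on the plus strand (GRCm38; hairpin 109710175 to 109710256), where no other annotated gene overlaps on that strand. From the annotated 5′ end it is A5G, within the seed. There the share was 1.59%, 1.48% and 1.43% in the TS-MIN6 libraries (184 of 11551, 173 of 11650 and 322 of 22475 reads). In the v1.5-MIN6 libraries it was 5.05%, 5.10% and 5.32% (808 of 15990, 842 of 16514 and 837 of 15732 reads). It was 4.20% in NF-MIN6 and 2.63% in TS-liver (34 of 1294 reads), and NF-liver had 1 read at this end. The kits did not overlap: each v1.5 library was above each TruSeq library, with NF-MIN6 and TS-liver in between. The group means were 1.5% ± 0.0817 and 5.16% ± 0.143 (SD, n = 3 each), a log2 fold change of 1.78 ± 0.06 (SE) or 3.43-fold (edgeR quasi-likelihood test, adjusted p = 0.000179). Without v1.5-MIN6-1 it was 1.81 (edgeR adjusted p = 7.50e-07).

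Reads of miR-411-5p that began 1 base upstream held a still higher share at the same hairpin base, there A6G. The TS-MIN6 libraries had 4.73%, 4.33% and 4.51% (84 of 1777, 84 of 1940 and 163 of 3611 reads), and the v1.5-MIN6 libraries 17.4%, 19.9% and 22.4% (294 of 1687, 362 of 1817 and 396 of 1764 reads). NF-MIN6 had 6.13% (93 of 1517) and TS-liver 4.70% (38 of 809). In all 8 libraries with reads, the upstream end had a higher share than the annotated end, although in TS-liver the 95% Wilson intervals overlapped (3.44% to 6.38% against 1.89% to 3.65%). Between kits the log2 fold change was 2.14 ± 0.12 (SE), 4.4-fold, with group means of 4.52% ± 0.199 and 19.9% ± 2.51 (SD, n = 3 each), and 2.23 without v1.5-MIN6-1. The v1.5 libraries gave 1061 of the 1533 G reads at this end, which reached the minimum of 1000 only with them, so this difference is a description and no p is given for it. In NF-MIN6 85 further reads had C at this position, 5.6% of the reads at the end.

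Another 5′ end of miR-411-5p, 1 base downstream, had only 310 G reads and was not kept by the rule. TS-MIN6 had 4.45%, 4.66% and 4.20% there, close to the upstream end. In NF-MIN6 186 of 322 reads had G (57.8%, Wilson interval 52.3% to 63.0%), the highest share of this base at any of its ends. The v1.5 libraries had 15 G reads of 166, 11 of 154 and 21 of 165 and are not given a share. The log2 fold change between kits was 1.12 ± 0.25 (SE; edgeR adjusted p = 0.0406, and 0.0233 without v1.5-MIN6-1), a call that was lost without any 1 of the TS-MIN6 libraries or without v1.5-MIN6-3 (edgeR adjusted p = 0.0927 to 0.134). It was also lost with DESeq2 (0.0913), TMM factors (0.189), the replicate number as a block (0.178), whole-number reads alone (0.332) and no filter on low G counts (0.139). Over the 3 ends together the share was 2.09%, 1.98% and 1.93% in TS-MIN6, 6.26%, 6.57% and 7.10% in v1.5-MIN6, 5.57% in NF-MIN6 and 3.42% in TS-liver. The upstream end held 12.9% to 13.8% of the reads in TS-MIN6, 9.45% to 9.99% in v1.5-MIN6, 10.3% in NF-MIN6 and 38.5% in TS-liver. The share of this base thus differed between 5′ ends as well as between kits. All G reads at the annotated and upstream ends were whole numbers, as reads with a single place are.

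**Figure D1:**
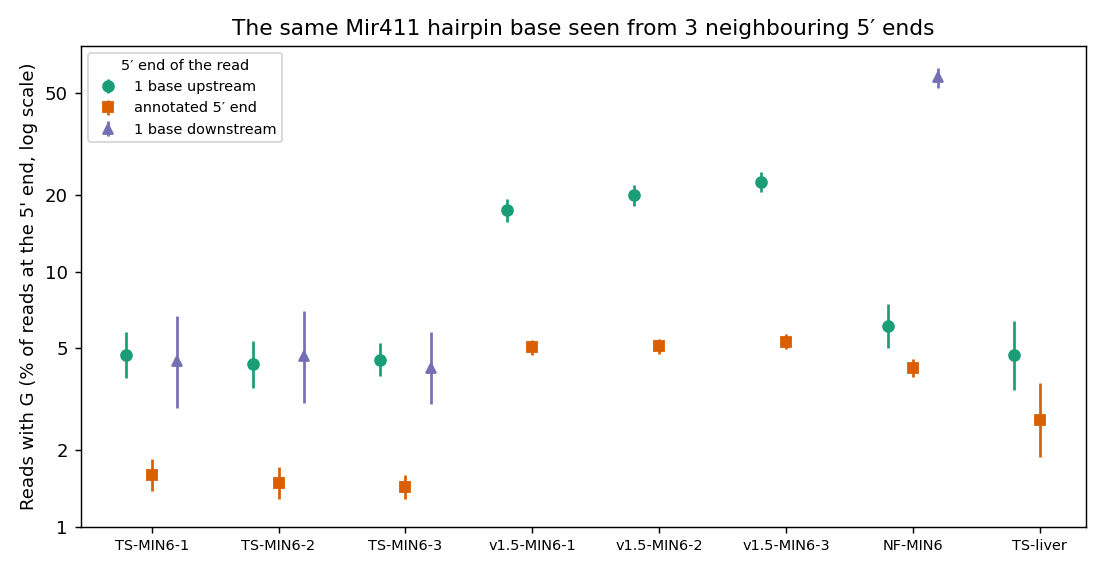
Share of reads with G (%, log scale) at the same Mir411 hairpin base, by library (x axis) and 5′ end of the read (colour and shape); bars are 95% Wilson intervals and shares with under 200 reads are left out. At the annotated end the 3 v1.5-MIN6 libraries sit between 5.05% and 5.32%, above the 3 TS-MIN6 libraries at 1.43% to 1.59%, and the downstream end of NF-MIN6 is at 57.8%.

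miR-378a-3p, made from a hairpin in an intron of the coactivator gene Ppargc1b, had the most G reads of the 5 sites that reached 1%, 14888. The site, A16G, lies outside the seed and held 82.8% of the 17990 G reads at this end. The share was 2.89%, 3.21% and 3.33% in TS-MIN6 and 1.67%, 1.64% and 1.80% in v1.5-MIN6. It was 2.11% in NF-MIN6, 3.71% in TS-liver (of 186488 reads) and 3.54% in NF-liver (of 114445 reads). Here the v1.5 libraries were the lower ones, again without overlap with TruSeq. The group means were 3.15% ± 0.230 in TS-MIN6 and 1.71% ± 0.0845 in v1.5-MIN6 (SD, n = 3 each), a log2 fold change of -0.88 ± 0.07 (SE; edgeR adjusted p = 0.00141), and -0.89 without v1.5-MIN6-1 (edgeR adjusted p = 5.97e-05). The Wilson intervals of the liver libraries, 3.62% to 3.80% and 3.44% to 3.65%, overlapped, while each lay above that of NF-MIN6 (1.95% to 2.28%).

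The next largest group of miR-378a-3p reads, with the same base as A15G, gave 1.99%, 2.38% and 2.77% in TS-MIN6 and 1.22%, 1.11% and 0.900% in v1.5-MIN6. The log2 fold change was -1.14 (edgeR adjusted p = 0.0248, and 0.00869 without v1.5-MIN6-1). The call was lost when TS-MIN6-2, TS-MIN6-3, v1.5-MIN6-2 or v1.5-MIN6-3 was left out (edgeR adjusted p = 0.0710 to 0.0868). It was also lost with DESeq2 (0.0647), with the replicate number as a block (0.167), without the filter on low G counts (0.202) and on whole-number reads alone (0.325). NF-MIN6 had 1 G read of 1510 at that end, with a Wilson upper bound of 0.374%, while TS-liver and NF-liver had 2.86% and 3.33%. The lengths of the G reads at the main end matched those of the exact reads: 24.3% and 73.6% were 21 and 22 nt long, against 25.0% and 72.4% of exact reads. Of these reads 98.0% were whole numbers. A further 4528 reads had this G and a non-genomic 3′ tail, 23.3% of all reads with the G, while 14.1% of all reads at this end had only a tail.

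miR-378c comes from another locus, chr14:46954830-46954928 on the minus strand (GRCm38), and has the miR-378 seed. Its A16G lies at base 19 of 99 of the hairpin. The share was 1.33%, 0.966% and 0.974% in TS-MIN6, 0.275%, 0.379% and 0.510% in v1.5-MIN6, 0.728% in TS-liver and 3.26% in NF-liver. NF-MIN6 had 0 of 1077 reads, which allows up to 0.279% by 3 counts. The groups did not overlap and the log2 fold change was -1.52 ± 0.30 (SE; edgeR adjusted p = 0.0263, and 0.0164 without v1.5-MIN6-1). The call was lost without any 1 of the TS-MIN6 libraries or without v1.5-MIN6-2 (edgeR adjusted p = 0.0688 to 0.0973). With exact reads plus single internal mismatches as denominator the log2 fold change was -2.88 (edgeR adjusted p = 0.00262). Only 0.342% of the 292 G reads were whole numbers. The others were the 6.55 reads of 19 nt and 284.75 reads of 20 nt that miR-378a-3p A16G also holds, reads too short to tell the loci apart and divided between places, so this share and its call are not independent of miR-378a-3p.

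miR-186-5p A4G, in an intron of Zranb2, reached 1% only in NF-liver (23 of 2148 reads, 1.07%). In TS-MIN6 it was 0.0115% to 0.0176%, in v1.5-MIN6-2 and v1.5-MIN6-3 0.0135% and 0.0234%, in NF-MIN6 0.0894% and in TS-liver 0.0168%. In v1.5-MIN6-1 it was 0.259%, where the same position also had 481 C reads and 468 U reads. Summed over libraries, G was not above the other mismatches at this site, and no difference between the kits was called (edgeR adjusted p = 0.218).

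**Figure D2:**
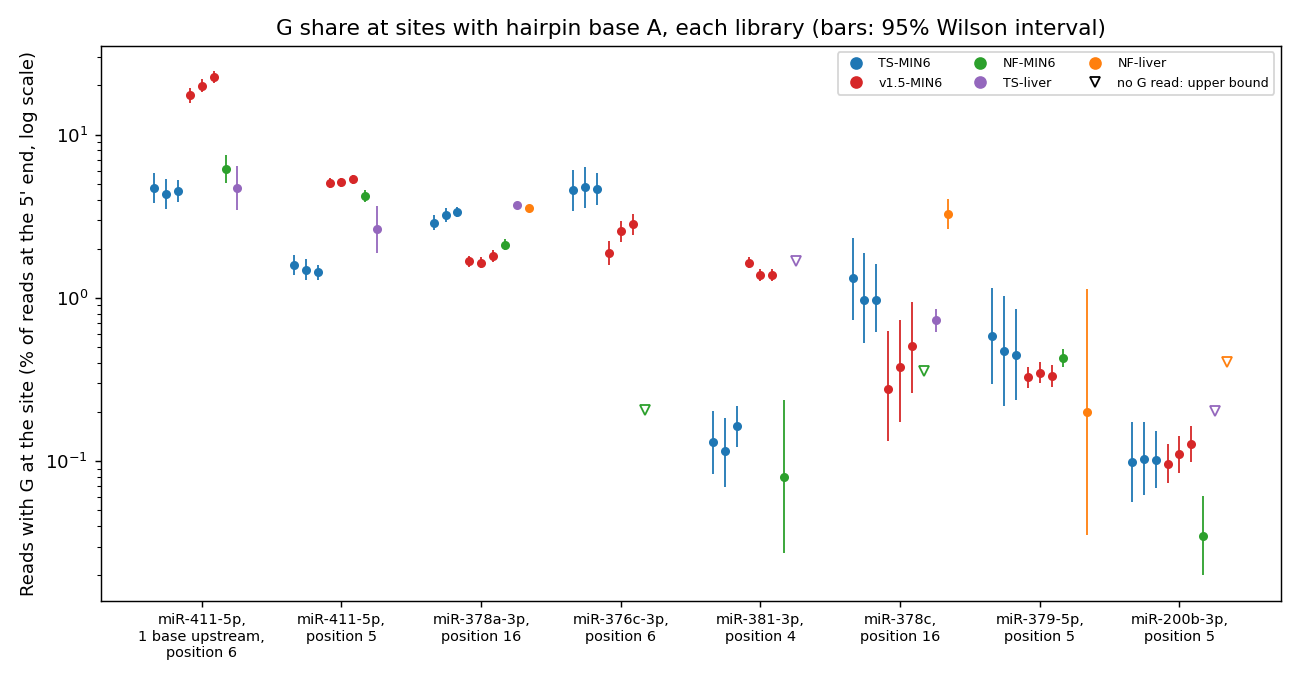
Share of reads with G (%, log scale) at 8 sites with hairpin base A (x axis), 1 point per library, coloured by kit and tissue; bars are 95% Wilson intervals and open triangles the upper bound where no read had G. The v1.5-MIN6 points lie above TS-MIN6 for miR-411-5p and for miR-381-3p at position 4, where a related hairpin holds G, and below it for miR-378a-3p and miR-376c-3p.

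A list of 19 miRNAs known from earlier work to be edited was looked up whether or not they were kept. For 14 of them an A site could be placed, and each is given by its highest A site. miR-411-5p and miR-378a-3p are described above. miR-376c-3p, in the Dlk1-Dio3 cluster at chr12:109722775 (GRCm38, base 58 of 86), had A6G in its seed with 631 G reads, too few to be kept. It was at 4.56%, 4.75% and 4.66% in TS-MIN6 (43 of 943, 45 of 947 and 71 of 1523 reads) and at 1.88%, 2.55% and 2.83% in v1.5-MIN6, without overlap. The log2 fold change was -0.94 ± 0.17 (SE; edgeR adjusted p = 0.0208, and 0.00117 without v1.5-MIN6-1), a call that was lost without any 1 of the TS-MIN6 libraries or without v1.5-MIN6-2 (edgeR adjusted p = 0.0587 to 0.0789). NF-MIN6 had no G among 1857 reads, which allows up to 0.162%, but 89 reads with C at that position (4.79%).

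miR-379-5p, the neighbour of miR-411-5p with a closely related sequence, had A5G at chr12:109709069 (GRCm38, base 10 of 66). The share was 0.584%, 0.473% and 0.450% in TS-MIN6, 0.326%, 0.348% and 0.333% in v1.5-MIN6 and 0.427% in NF-MIN6. NF-liver had only 1 G read of 499 (0.2%, Wilson interval 0.0354% to 1.13%). Each TruSeq share lay above each v1.5 share, but at 1269 to 2002 reads the TruSeq Wilson intervals overlapped those of v1.5, and no difference was called (log2 fold change -0.57, edgeR adjusted p = 0.239). Against miR-411-5p A5G in the same libraries, the G share of miR-379-5p was lower in every one of the 7 MIN6 libraries. In both miRNAs this A is the same base of the seed.

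The other listed miRNAs had lower shares or few reads. miR-200b-3p A5G, in a miRNA of epithelial cells, stood at 0.0987% to 0.104% in TS-MIN6 and 0.0963% to 0.127% in v1.5-MIN6, and no difference was called (edgeR adjusted p = 0.756). miR-151-3p A4G rested on few reads, with 5.34%, 1.26% and 2.10% in TS-MIN6 (11 of 206, 3 of 239 and 9 of 429 reads) and 17% in NF-MIN6 (61 of 359 reads, Wilson interval 13.5% to 21.2%). TS-liver had 0.335% (4 of 1195 reads, Wilson interval 0.130% to 0.857%). miR-142a-5p A4G, in a miRNA of blood cells, was at 1.33% in NF-liver (18 of 1355 reads) and at 0.0203% in TS-liver, which had 10 G reads of 49378. These liver libraries were made from the same RNA. miR-497a-5p A2G was at 1.14% in TS-liver (13 of 1145 reads), 0.260% in NF-liver (1 of 384 reads) and 0.0322% to 0.206% in the MIN6 libraries.

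At 4 listed miRNAs G, summed over the libraries, was not above the other mismatches. miR-421-3p A7G was at 0.0460%, 0.0263% and 0.0295% in TS-MIN6 and 0.748%, 0.792% and 1.16% in v1.5-MIN6. The log2 fold change was 4.67, and 4.81 without v1.5-MIN6-1. Each TS-MIN6 library had 3 to 6 G reads and each v1.5 library 8 to 11. The site passed the minimum of G reads for the test only with the v1.5 libraries, where it was high. This difference is therefore a description with no p. TS-MIN6-1 and TS-MIN6-2 had 122 and 275 reads with another letter at that base. v1.5-MIN6-1 had 0, v1.5-MIN6-2 1 C and 1 U read, and v1.5-MIN6-3 1 U read. NF-MIN6 had 22 G reads (0.125%) and 0 of another letter. miR-381-3p A7G was at 0.308% ± 0.0426 in TS-MIN6 and 0.0627% ± 0.0117 in v1.5-MIN6 (SD, n = 3 each; edgeR adjusted p = 0.00206, and 0.000158 without v1.5-MIN6-1). Its end was kept only with the v1.5 libraries (1980 of 2324 G reads), although A7G was the lower there. The commonest other letter had 170 and 415 reads in TS-MIN6-1 and TS-MIN6-2. In TS-MIN6-3 A7G had 76.5 G reads, and the commonest other letter 3. miR-376b-5p A7G had 56 G reads in all. miR-22-3p A2G had 317 of 1282180 reads, against 8847 and 10191 reads of the commonest other letter in TS-MIN6-1 and TS-MIN6-2. It was at 0.189% in NF-MIN6 (29 G reads of 15322, and 2 of the commonest other letter) and 0.305% in NF-liver (16 of 5252, and 1 of the commonest other letter). miR-376a-5p A4G (18 G reads) and miR-455-5p A17G (27 G reads) were above the other mismatches on few reads. miR-99b-3p, miR-27a-5p, miR-1251-5p, miR-3099-3p and miR-467d-5p could not be placed.

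miR-381-3p A4G, also in the Dlk1-Dio3 cluster (chr12:109726873, GRCm38), had a higher share in v1.5. It was 0.130%, 0.116% and 0.164% in TS-MIN6 and 1.64%, 1.38% and 1.38% in v1.5-MIN6, and 3 of 3742 reads in NF-MIN6 had it (0.0802%). The log2 fold change was 3.42 ± 0.18 (SE), 10.7-fold, and 3.27 without v1.5-MIN6-1. The v1.5 libraries gave 1980 of the 2324 G reads at this end, which would not have been kept without them, so this difference too is a description with no p. In v1.5-MIN6-1 197 reads had C and 212 had U at this position, against 5 C reads in v1.5-MIN6-2 and 4 C and 2 U reads in v1.5-MIN6-3. The related Mir300 hairpin holds G at this base, which sets the site among those a related gene could give. The G reads were 22 nt long in 98.8% of cases (exact reads 93.6%), and at that length they had 2 mismatches to Mir300 and 1 to Mir381. The G read and the Mir300 stretch are shown with the G and with the mismatching bases in capitals.
miR-381-3p A4G read: uauGcaagggcaagcucucugu
Mir300: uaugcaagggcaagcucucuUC
The reads thus carried the 3′ end of miR-381-3p, and 99.6% of them were whole numbers.

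Sites at which a related hairpin holds G included the largest single count of the series on a miRNA. let-7c-5p from Mirlet7c-2 had A17G with 47526 reads, 86.8% of the G reads at that end, at chr15:85706632 (GRCm38) in an exon of the non-coding transcript Lncppara. The share was 0.392%, 0.368% and 0.331% in TS-MIN6, 0.305%, 0.321% and 0.289% in v1.5-MIN6, 3.66% in NF-MIN6, 1.13% in TS-liver and 5.81% in NF-liver. The NEXTflex libraries were the high ones in both cells and liver. The G reads were 24 nt long in 100% of cases after rounding, whereas 81.9% of exact reads were 22 nt, and a 24-nt G read has 1 mismatch to let-7b, at its last base. No difference between v1.5 and TruSeq was called (log2 fold change -0.25, edgeR adjusted p = 0.107), except when TS-MIN6-3 was left out (-0.32, edgeR adjusted p = 0.0464).
let-7c-5p A17G read: ugagguaguagguuguGugguuuu
Mirlet7b: ugagguaguagguugugugguuuC
By these sequences the G read has 1 mismatch at either locus, but 93.8% of the G reads were whole numbers, as undivided reads are.

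let-7a-5p from Mirlet7a-1 had T9G, at which Mirlet7e holds G (chr13:48538252, GRCm38). It was 0.797%, 0.948% and 0.859% in TS-MIN6, 0.321%, 0.334% and 0.322% in v1.5-MIN6, 0.709% in NF-MIN6, 0.257% in TS-liver and 0.394% in NF-liver. v1.5 was lower without overlap (log2 fold change -1.41 ± 0.07 SE, edgeR adjusted p = 0.000615, and 5.03e-06 without v1.5-MIN6-1). The G reads were 23 nt long in 84.1% of cases and 24 nt in 15.9%, while 79.7% of exact reads were 22 nt. Only 15.9% of them were whole numbers, and on whole-number reads alone the sign turned (log2 fold change 2.35, edgeR adjusted p = 0.370).
let-7a-5p T9G read: ugagguagGagguuguauaguuu
Mirlet7e: ugagguaggagguuguauaguuG

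miR-98-5p A11G, in an intron of Huwe1 (chrX:151913239, GRCm38), was at 3.78% in NF-liver and 0.956% in TS-liver. In MIN6 it was higher in v1.5 than in TruSeq (log2 fold change 1.93, and 1.90 without v1.5-MIN6-1). Each TS-MIN6 library had only 2 to 6.6 G reads. The site passed the minimum of G reads for the test only with the v1.5 libraries, where it was high. This difference is therefore a description with no p. Its edgeR call was also lost without TS-MIN6-3, v1.5-MIN6-2 or v1.5-MIN6-3. The same held with TMM factors, with the replicate number as a block and without the filter on low G counts. Of its G reads, 7.36% were whole numbers. Its G reads were 19 nt long in 74.1% of cases, with 1 mismatch to let-7a or let-7c at the last base.
miR-98-5p A11G read: ugagguaguaGguuguauu
Mirlet7a-1: ugagguaguagguuguauA
miR-378c C21G was at 2.26% to 2.78% in TS-MIN6, 2.58% to 2.85% in v1.5-MIN6, 3.62% in NF-MIN6, 3.45% in TS-liver and 23.7% in NF-liver. With at least 3 bases needed after the G, reads of C21G could only be 24 or 25 nt long. All were 24 nt, so this length was set by the rule, while 88.7% of exact reads were 20 nt. The share also counts shorter reads that could not show this G. The G reads had 1 mismatch to the miR-378a hairpin, at position 23, and 56.2% of them were whole numbers. At let-7c-5p A17G, let-7a-5p T9G and miR-98-5p A11G the G reads differed in length from the exact reads of the same end. Those of miR-411-5p, miR-378a-3p and miR-381-3p A4G did not.

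**Figure D3:**
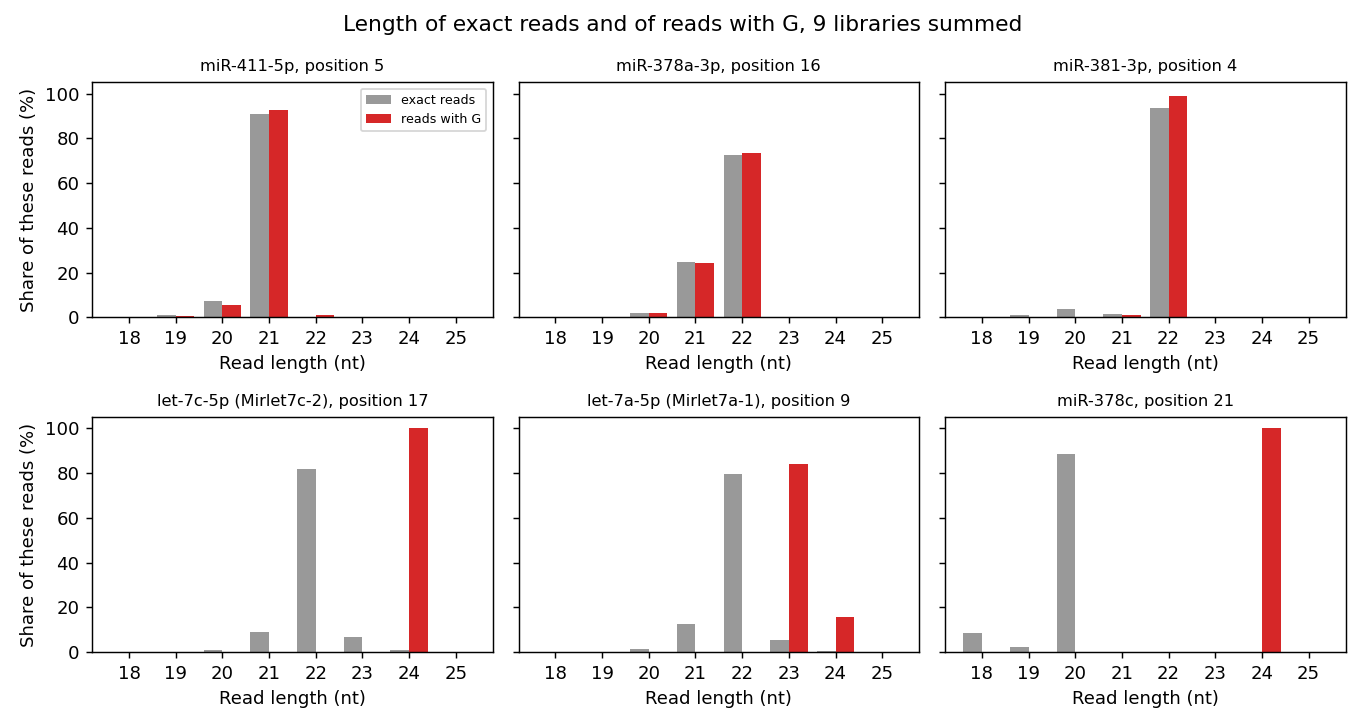
Share (%) of exact reads (grey) and of reads with G (red) by read length in nt, summed over the 9 libraries, at 6 sites. The lengths overlap in the top row (miR-411-5p, miR-378a-3p, miR-381-3p) and lie apart in the bottom row, where G reads of let-7c-5p and miR-378c are 24 nt long. At miR-378c C21G the rule admits only G reads of 24 or 25 nt, so their length was fixed in advance.

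Sites with hairpin base U or C gave the level that G reached where A-to-I editing cannot act. The highest C sites, in miR-200a-3p, miR-16-5p, miR-141-3p, miR-29a-3p and miR-99b-5p, were all at read position 4. In v1.5-MIN6-1 they had 0.336% to 0.396%, in v1.5-MIN6-2 and v1.5-MIN6-3 0% to 0.00809%, in TS-MIN6 0% to 0.0225% and in NF-MIN6 0.0556% to 0.0796%. Their high values therefore came from 1 library. Of the U sites, miR-379-5p T4G and miR-411-5p T4G were likewise highest in v1.5-MIN6-1 (0.366% and 0.325%). miR-27b-3p T2G was at 0.659% in NF-liver (129 of 19570 reads) and at most 0.00642% elsewhere. miR-98-5p T19G was at 0.294% in NF-liver, with means of 0.0320% in TS-MIN6 and 0.161% in v1.5-MIN6 (log2 fold change 2.25, with or without v1.5-MIN6-1). Each TS-MIN6 library had only 4 to 7.67 G reads. The site passed the minimum of G reads for the test only with the v1.5 libraries, where it was high. This difference is therefore a description with no p. Moreover, only 18.2% of the G reads at miR-98-5p T19G were whole numbers, and its edgeR call was lost on whole-number reads alone. let-7c-5p, printed above, also holds G at this base. miR-122-5p T17G was at 0.215% in NF-MIN6 (7 of 3255 reads), 0.0666% in TS-liver and 0.0423% in NF-liver.

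Over positions 2 to 15 of the kept miRNA ends with at least 5000 reads, the median share of G was higher at A than at C or U in each of the 9 libraries. At A it was 0.0153% to 0.0160% in TS-MIN6, 0.0307%, 0.0181% and 0.0184% in v1.5-MIN6, 0.0637% in NF-MIN6, 0.0109% in TS-liver and 0.0920% in NF-liver. At C or U it was 0.00248% to 0.00331% in TS-MIN6, 0.0137%, 0.00367% and 0.00381% in v1.5-MIN6, 0.00513% in NF-MIN6, 0.00502% in TS-liver and 0.00361% in NF-liver. The ratio was thus 12.4 and 25.5 in the NEXTflex libraries and 2.17 to 6.40 in the others. A to G had the highest median of the 12 substitutions in both NEXTflex libraries and ranked 4th to 6th in the Illumina kits, where C to U (MIN6, 0.0301% to 0.0613%) or C to A (TS-liver, 0.0222%) came first.

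The same contrast was seen in the number of A sites above a low share. Among sites with at least 5000 reads in the library, 64 of 251 in NF-MIN6 (25.5%) and 63 of 162 in NF-liver (38.9%) reached 0.1%. In TS-MIN6 it was 4 of 217, 6 of 217 and 5 of 231, in TS-liver 3 of 178, and in v1.5-MIN6-2 and v1.5-MIN6-3 6 of 250 each. v1.5-MIN6-1 had 40 of 250 (16%), and 36 of the 40 were at positions 3, 4, 10 and 12. At 1% the libraries did not differ in this way: 2 sites reached it in each MIN6 library and 1 in each liver library. Ends were kept on G reads summed over all libraries, to which NF-MIN6 and NF-liver gave 144656 and 91327 of 509954, so these counts are a description. Shares of 1% or more were held by miR-411-5p and miR-378a-3p at this depth. By the base before the A, median shares were 0.0334% after U (76 sites), 0.0318% after C (54), 0.0254% after A (68) and 0.0378% after G (68). The 2 sites after U that reached 1% are the same miR-411 base.

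**Figure D4:**
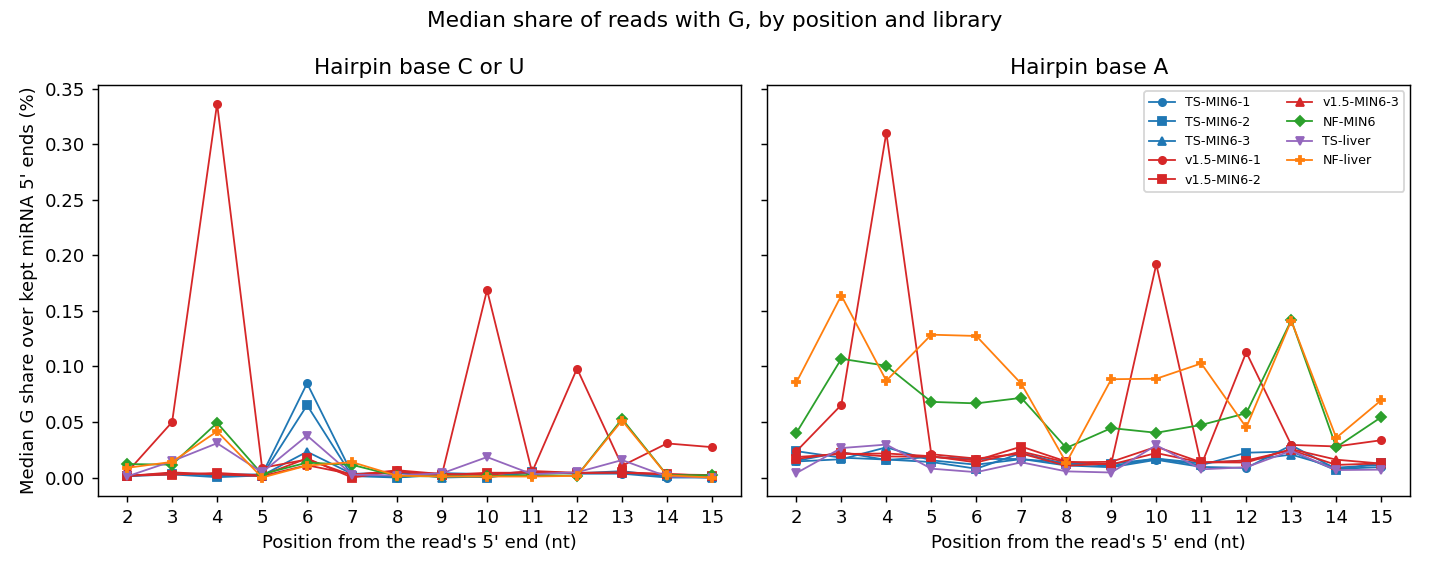
Median share of reads with G (%) by position from the read's 5′ end (nt) over kept miRNA ends, at hairpin base C or U (left) and A (right), 1 line per library. v1.5-MIN6-1 peaks at position 4 in both panels (0.336% at C or U), and the NEXTflex lines are above the others at most A positions.

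The 38 ends that matched no annotated small RNA sequence fell into 18 groups that share a genomic base or the same divided reads. Their genomic base was taken from the letters of the edit strings: it is the one base never listed as a mismatch there, and it was A at 13 ends, U at 9 and unresolved at 16. The leading site of an end held 34.9% to 99.8% of its reads over all libraries, and over 90% at 21 ends. The largest was T8G at an end on chromosome 3 (mm9, chr3:139691245, plus strand), with 38360 of 44942 reads. Its share was 93.6% to 94.6% in TS-MIN6, 84.4% to 84.8% in v1.5-MIN6 and 83.1% in NF-MIN6, and the kits differed (log2 fold change -0.15, edgeR adjusted p = 0.000725).

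Among the unmatched ends with base A, 7 on chromosome 6 covered the same A (mm9, chr6:94776861, minus strand) with shares of 97.4% to 99.7%. A pair on chromosome 11 covered chr11:68850539 (mm9) with 90.4% to 99%. Ends at 3 places shared an A9G with 70.0% to 72.5%. Among those with base U, 3 ends with 13888 reads each had a share of 34.6% to 35.4%, with at least 200 reads in the v1.5 libraries only, and 0.0792% of these reads were whole numbers, so that nearly all were divided among places. Every leading share at the unmatched ends was above 22.4%, the highest at a kept A site on a miRNA. Their RNA is not named here. The Snord60 end had C4G as its leading site (602 reads), again highest in v1.5-MIN6-1 at 0.361%.

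The test of v1.5 against TruSeq in MIN6 was fitted over all sites at 5′ ends with at least 1000 reads and at least 30 G reads in the 6 libraries, kept or not. Of 738 sites tested, 115 were called at an adjusted p under 0.05 (15.6%), 92 of them higher in v1.5 (12.5%) and 23 lower (3.12%). Of the 849 member sites 431 passed the filter, and 27 were called higher and 11 lower (8.82%). Of the 91 ends, 41 would not have reached the minimum without the v1.5 libraries and 4 without the TS-MIN6 libraries, so the counts over members are a description. Of the 266 A sites 189 were tested, and 6 rose and 3 fell (4.76%). Of the sites with base U 110 were tested, with 9 higher and 3 lower. Base C had 1 in each direction among 53, and sites with a related hairpin 3 in each direction among 26. The median log2 fold change over all sites was 1.43, and over the members 0.79.

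These counts moved with v1.5-MIN6-1. Without it 494 sites were tested and 141 called (28.5%), 113 higher (22.9%) and 28 lower (5.67%), and the median log2 fold change fell to 0.31 over all sites and 0.21 over members. Of the members 41 were then higher and 16 lower among 326 (17.5%), and of the A sites 10 and 3 among 165. miR-411-5p A5G was called higher in v1.5, and miR-378a-3p A16G, miR-378c A16G and miR-381-3p A7G lower, with or without this library. The end of miR-381-3p A7G was kept only with the v1.5 libraries. With TMM factors in the offset, which take out part of the shift of all sites (median 1.09), the log2 fold changes of miR-411-5p A5G and A6G were 1.45 and 1.82, that of miR-378a-3p A16G was -1.21 and that of miR-381-3p A4G was 3.07. Without the filter on low G counts 237 of 258 called sites were higher in v1.5 (91.9%), against 80.0% with it. The other A sites called with all libraries had low shares. miR-22-3p A14G rose from 0.0179% to 0.0359% (edgeR adjusted p = 0.0477), which was no longer called without any 1 of the 6 libraries (edgeR adjusted p = 0.0541 to 0.138). miR-141-3p A19G was at 0.000692% and 0.0118%, a site at which G was not above the other mismatches and whose end was kept only with the v1.5 libraries (4891 of 5636 G reads), so no p is given. let-7f-5p A17G and let-7g-5p A7G rose by 0.79 and 1.02 on the log2 scale (edgeR adjusted p = 0.0279 and 0.0470, and 0.0243 and 0.0185 without v1.5-MIN6-1). Leaving out any 1 of the other 5 libraries ended both calls (edgeR adjusted p = 0.0631 to 0.125 and 0.122 to 0.154), as did DESeq2 (0.168 and 0.215) and TMM factors (0.283 and 0.294). On whole-number reads alone the log2 fold change of let-7f-5p A17G was 5.03 (edgeR adjusted p = 0.313).

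**Figure D5:**
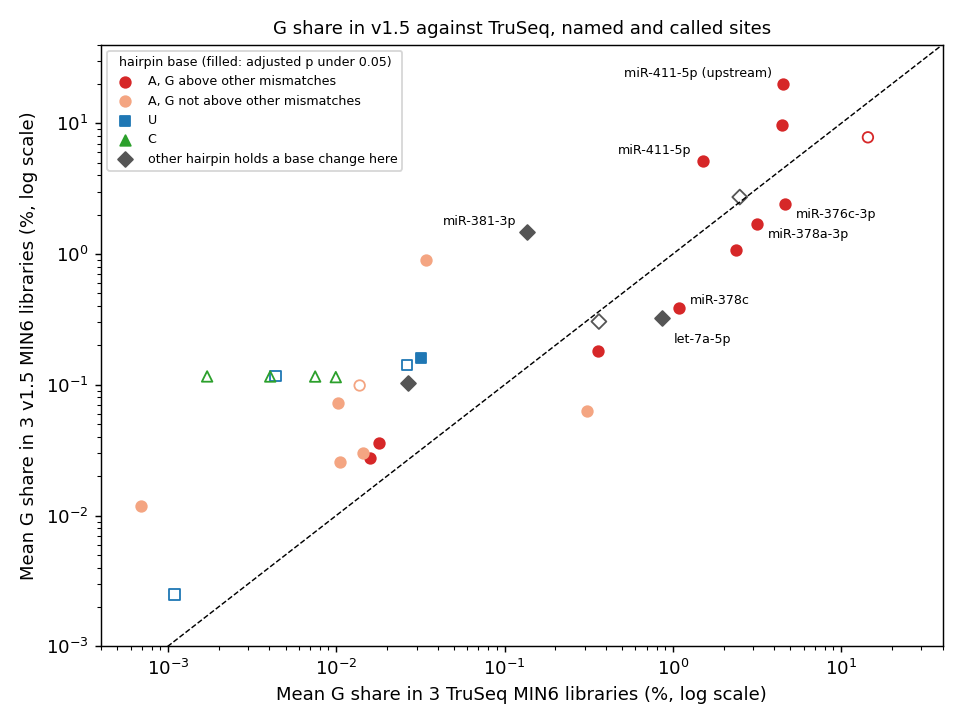
Mean share of reads with G (%, log scales) in 3 v1.5 MIN6 libraries (y axis) against 3 TruSeq MIN6 libraries (x axis) for named and called sites, with colour and shape for the hairpin base and filled symbols for an adjusted p under 0.05; the dashed line marks equal shares. miR-411-5p and miR-381-3p A4G lie above the line, and miR-381-3p A7G, miR-378a-3p, miR-376c-3p and let-7a-5p below it. Filled symbols include sites that passed a minimum of G reads only with the v1.5 libraries, where they are high. Among them are miR-411-5p A6G, miR-381-3p A4G, miR-141-3p A19G, miR-421-3p A7G, and miR-98-5p A11G and T19G, whose filling is not read as a test result.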

How the data were processed

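Each deposited line describes 1 alignment by its coordinates, its mismatches and an expected count, and the authors derived these expected counts by removing adapters with cutadapt (NEXTflex reads lost 4 random bases at each end), aligning to mm9 with Bowtie and splitting a read evenly over its equally good alignments, so related miRNAs share reads. Versions are not given in the sources used here. Base qualities and molecular identifiers were not used, and intervals and floors cover counting error only.

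Lines of 18 to 25 nt with 1 G mismatch and at least 3 bases after it were summed by 5′ end and position. The share is G reads over all reads of 18 to 25 nt at that 5′ end. Shares are printed from 200 reads up, with 95% Wilson intervals where single libraries are compared, and a count of 0 allows 3 counts. Hairpins (1005 from RefSeq and 1234 further ones from GENCODE M21, GRCm38) were placed by the bases that the edit strings report, with at most 0.001 placements by chance. mm9 and GRCm38 coordinates were not converted. A site was set apart where another hairpin differs at that base alone, with G or another letter there, over 18 bases.

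Expected counts were rounded and tested with edgeR 4.0.16 (quasi-likelihood, log of the reads at the 5′ end as offset, Benjamini-Hochberg over all 738 sites), 3 v1.5 against 3 TruSeq MIN6 libraries, in R 4.3.3. The SE is the log2 fold change over the square root of F. DESeq2 1.42.0 was an alternative. Simulated data of 738 sites gave back 42.9% of 2-fold and 84.4% of 4-fold changes, with 1.12% of unchanged sites called. The simulation had a single fixed dispersion, no divided reads and no library that stood apart as v1.5-MIN6-1 did. Its rates therefore do not describe the test on these data. NF-MIN6 and the liver libraries have no replicate and were not tested. Named sites were those with base A and 1% in a library, the 5 highest each with base U, base C or a related hairpin, the ends next to the minimum, and the list of edited miRNAs. miR-22-3p A14G, miR-141-3p A19G, let-7f-5p A17G and let-7g-5p A7G were named by their test. Members, lists and tests were chosen with earlier results of these data known.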

Additional observations from a re-analysis of the deposited data

How the results depend on the processing

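Fewer or more sites were called between v1.5 and TruSeq under some settings: 258 of 5467 (237 higher, 21 lower in v1.5) without the filter on low G counts, 65 with the replicate number as a block, and 10 of 560 on whole-number reads alone, against 115. DESeq2 called 100, TMM factors 102, reads of 20 to 24 nt 99, at least 5 bases after the G 102, and exact reads plus single internal mismatches as denominator 114. Leaving out 1 library gave 80 to 141. Of 115 sites 80.0% were higher in v1.5, against 91.9% without the filter and 70% on whole-number reads. Same-numbered libraries did not deviate together (correlations -0.0632, -0.104 and 0.0506 over 179 sites), so the block is not a pairing from the design, and not every library correlated best with its own number.

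The number of kept 5′ ends, 91, became 158 at a minimum of 500 reads, 57 at 2000, 59 when each site must reach 1000 and 1959 when all alignments of the 5′ end count, and the 266 A sites became 407, 154, 39 and 1749. The sign turned for miR-141-3p C4G without v1.5_MIN6 replicate 1 (log2 fold change -0.16, adjusted p = 0.888 by edgeR, and up to 5.38 without another library), for miR-378c C21G with TMM factors (-0.19), on whole-number reads (-2.91) and with exact reads plus single internal mismatches as denominator (-1.24, then called, adjusted p = 0.00273 by edgeR, against 0.751), and for let-7a-5p T9G on whole-number reads (2.35). The cause was not tested. miR-411-5p A5G and miR-378a-3p A16G kept their direction and stayed called under each alternative run, and miR-411-5p A6G and miR-381-3p A4G kept their direction. miR-376c-3p A6G was no longer called with the block (adjusted p = 0.0853 by edgeR) or on whole-number reads (0.175), and miR-378c A16G with DESeq2 (0.0688), without the filter (0.230) and with the block (0.159). Depth limits miR-379-5p in TruSeq (1269 to 2002 reads) and the downstream miR-411-5p end in v1.5 (154 to 166 reads).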
